A study of Mus musculus with 14 samples.

Results

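The genes described here are 34 interferon-stimulated genes and nucleic acid sensors that respond to type I interferon, chosen by symbol and found among the 29923 gene symbols of an expression table of mouse liver tumours. All 34 had a row in it. Type I interferons (interferon alpha and beta) bind a receptor of the subunits Ifnar1 and Ifnar2, whose kinases Jak1 and Tyk2 phosphorylate transcription factors such as Stat2. Stat2 and Irf9 are part of a complex that binds interferon-stimulated response elements and switches on genes whose products sense viral RNA, block its translation or degrade it, or hold particles at the cell surface. Interferon gamma, made mostly by T and NK cells, signals through a receptor of its own and induces a set of genes that overlaps with this one.

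The study set tumours with overexpression of Aoah, the enzyme acyloxyacyl hydrolase that removes fatty acyl chains from bacterial lipopolysaccharide, against tumours that received the empty vector. The tumours were hepatocellular carcinomas of C57BL/6 mice, raised by injecting the tail vein with transposon plasmids and the SB100 transposase, which inserts them into the genome of liver cells. In the Luc model the driver plasmid carried MYC and luciferase, and in the LucOS model it carried the OVA, SIN and SIY antigens as well. The 4 groups were Luc Aoah (4 tumours), Luc vector (4 tumours), LucOS Aoah (3 tumours) and LucOS vector (3 tumours), profiled as bulk polyA RNA. A plasmid for an activated beta-catenin is also listed for the study without a statement of which tumours received it, and an anti-PD1 treatment is described without a statement that any of these tumours was treated. No age is stated. Whether the numbered tumours are from separate animals is not stated either, and p-values measure only the spread between these samples, which may be technical.

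Values are TPM, a transcript abundance scaled for length and to a fixed total per library, which keeps no sequencing depth, so the depth of each library is unknown. Between 11478 and 12836 genes reached 1 TPM in a tumour. Aoah itself stood at 504, 685, 284 and 519 TPM in Luc Aoah tumours 1 to 4, against 18.6, 0.74, 54.8 and 0.89 TPM in Luc vector tumours 1 to 4. In LucOS it stood at 576, 589 and 931 TPM in LucOS Aoah tumours 1 to 3, against 1.28, 1.59 and 3.43 TPM in LucOS vector tumours 1 to 3, so every Aoah tumour was far above every vector tumour, while Luc vector 1 and 3 carried more Aoah than the other vector tumours. Mitochondrial transcripts made up 16.6% of TPM in LucOS Aoah 3 and 3.41% to 8.45% in the other 13 tumours. Groups were compared on log2(TPM + 1) with limma over all 13466 genes at 1 TPM or more in at least 3 tumours, and a gene is said to have risen or fallen at an adjusted p under 0.05. Of the 34 members, 33 passed that filter. Oas3 did not, and Oas2 and Mx1 passed it only through LucOS tumours, since neither reached 1 TPM in a Luc tumour. The samples are bulk tumours, so more cells of a type and more RNA per cell cannot be told apart.

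In Luc tumours many of the interferon-stimulated genes were higher with Aoah. Of the 33 tested, 12 rose and 0 fell, where 7.93% of all genes tested rose and 14.3% fell. The 12 were Epsti1, Ifi27l2a, Ifi47, Zbp1, Sp100, Ifit3, Isg15, Xaf1, Cmpk2, Ifit1, Ifih1 and Rtp4. The change was positive for 29 of 33, with a median of 0.91 on the log2 scale against -0.24 over all genes tested. For 23 of the 33, each Aoah tumour was above each vector tumour, which held for 11.8% of all genes tested; each was below for 0 members and for 9.10% of all genes.

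**Figure D1:**
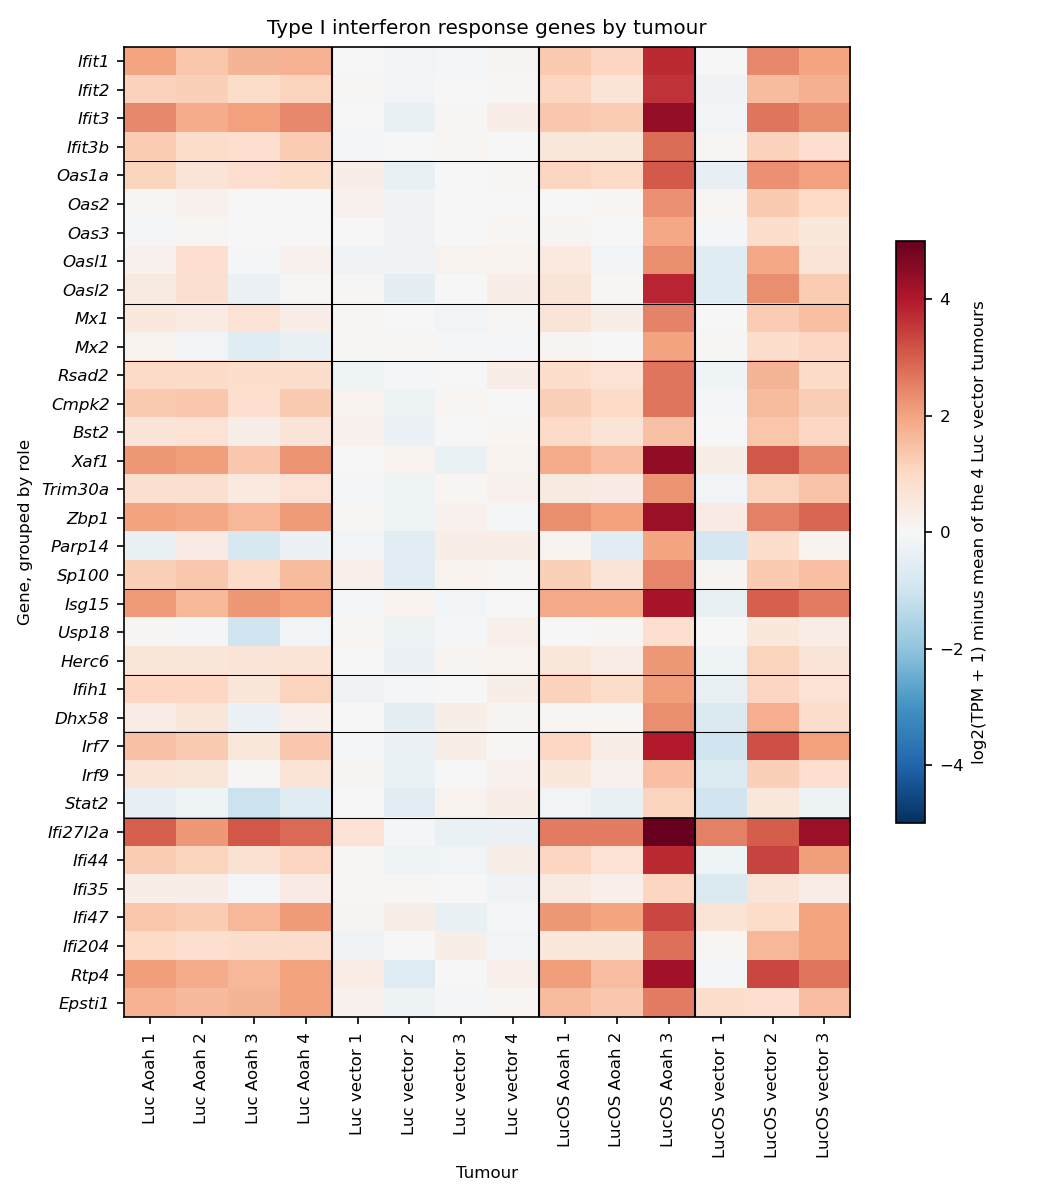
Level of each of the 34 genes (rows, grouped by role) in each of the 14 tumours (columns), as log2(TPM + 1) minus the mean of the 4 Luc vector tumours, with red above and blue below that mean. The 4 Luc Aoah tumours are red over most rows, LucOS Aoah 3 is red over every row, and LucOS vector 1 is above the Luc vector mean in 11 rows.

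With each tumour centred on its median, 20 members rose, and 2145 genes rose and 1975 fell, against 1068 and 1920 without centring. Centring moved the median change of all genes from -0.24 to 0.07, and with it Usp18, Mx2 and Parp14 turned from slightly negative to slightly positive. The count in Luc depended on which tumours were fitted. With only the 8 Luc tumours filtered and fitted, 12945 genes were kept. In that fit 22 of 31 members tested rose and 0 fell, where 9.50% of all genes rose and 10.5% fell. They were the members that rose in the shared fit of all 14 tumours, and Bst2, Herc6, Ifi204, Ifi44, Ifit2, Ifit3b, Irf7, Oas1a, Rsad2 and Trim30a. Ifit1, Ifit2, Ifit3b, Ifi44 and Cmpk2 were below 1 TPM in every Luc vector tumour, and Ifit3 and Rsad2 in all but Luc vector 4. All of these genes passed that filter only through the Luc Aoah tumours, the group where they were higher. In the shared fit, leaving out any 1 of the 14 tumours gave 3 to 14. The count was 4 without Luc Aoah 1, 5 without Luc Aoah 3, 3 without Luc Aoah 4, 4 without Luc vector 1, 4 without Luc vector 3 and 3 without Luc vector 4, and 2 without Luc vector 1 and 3 together, the vector tumours with more Aoah. Epsti1, Ifi27l2a and Ifi47 passed without each of the 14 tumours in turn.

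The Ifit genes encode proteins that bind foreign RNA and block its translation. All 4 had positive changes in Luc and 2 rose. Ifit1 stood at 4.60, 2.68, 3.56 and 3.71 TPM in Luc Aoah tumours 1 to 4, against 0.46, 0.29, 0.38 and 0.57 TPM in Luc vector tumours 1 to 4. The groups did not overlap, and the change was 1.69 ± 0.54 (SE, limma adjusted p = 0.0399). Ifit3 stood at 8.52, 5.41, 6.45 and 8.33 TPM in Luc Aoah tumours 1 to 4, against 0.77, 0.38, 0.83 and 1.25 TPM in Luc vector tumours 1 to 4. Here too the lowest Aoah tumour was several fold above the highest vector tumour, and the change was 2.18 ± 0.65 (SE, limma adjusted p = 0.0326). Its near-identical neighbour Ifit3b stood at 1.71, 1.11, 1.00 and 1.67 TPM in Luc Aoah tumours 1 to 4, against 0.08, 0.09, 0.19 and 0.10 TPM in Luc vector tumours 1 to 4. The groups did not overlap, but the change of 1.08 ± 0.40 (SE, limma adjusted p = 0.0626) did not pass in the fit of all 14 tumours. With only the Luc tumours fitted the same change had an SE of 0.16 and passed (limma adjusted p = 0.00193). The vector values are so low that the log2(TPM + 1) scale understates the difference. Ifit2 stood at 2.62, 2.79, 2.08 and 2.54 TPM in Luc Aoah tumours 1 to 4, against 0.71, 0.50, 0.66 and 0.74 TPM in Luc vector tumours 1 to 4, also without overlap, with a change of 1.08 ± 0.52 (SE, limma adjusted p = 0.129). In transcripts of the GENCODE M21 annotation, 51.2% of the 50-base stretches of Ifit3 occur in another gene, Ifit3b, and 44.5% of those of Ifit3b occur in Ifit3, so how reads were divided between them is uncertain.

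Isg15 is a ubiquitin-like protein that is attached to other proteins during the interferon response. It stood at 19.4, 13.8, 19.9 and 17.9 TPM in Luc Aoah tumours 1 to 4, against 3.47, 4.26, 3.16 and 3.65 TPM in Luc vector tumours 1 to 4. No tumour crossed between the groups, and Isg15 rose by 2.01 ± 0.61 (SE, limma adjusted p = 0.0352). Herc6, a ligase that attaches Isg15 in mice, stood at 5.13, 5.19, 5.24 and 5.48 TPM in Luc Aoah tumours 1 to 4, against 3.03, 2.30, 3.39 and 3.51 TPM in Luc vector tumours 1 to 4. Its groups did not overlap either, and its change was 0.64 ± 0.35 (SE, limma adjusted p = 0.182). Usp18, which removes Isg15 and dampens signalling at the interferon receptor, stood at 24.8, 22.9, 11.7 and 21.6 TPM in Luc Aoah tumours 1 to 4, against 25.6, 20.2, 22.4 and 28.7 TPM in Luc vector tumours 1 to 4. Its groups overlapped and its change was -0.29 ± 0.25 (SE, limma adjusted p = 0.39).

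Promoter windows of 5 members that rose and of Ifit3b, the neighbour of Ifit3 that did not pass, are shown because the response element of the interferon complex is a known sequence and the members can be read for it side by side. They come from RefSeq on build GRCm38.p6, run from 250 bases before to 50 after an annotated start, and are written in the direction of the gene. Capitals mark matches to the core of the response element, a pair of GAAA half-sites with 2 bases of any kind between them, searched on both strands, so that a pair of TTTC with the same spacing is a match on the other strand; overlapping matches are merged in the capitals. Isg15 lies at chr4:156200769-156201068 on the minus strand, Ifit1 at chr19:34640639-34640938 on the plus strand, Ifit3 at chr19:34583279-34583578 on the plus strand, Ifit3b at chr19:34607707-34608006 on the plus strand, Epsti1 at chr14:77903989-77904288 on the plus strand and Ifi47 at chr11:49076337-49076636 on the plus strand.
Isg15: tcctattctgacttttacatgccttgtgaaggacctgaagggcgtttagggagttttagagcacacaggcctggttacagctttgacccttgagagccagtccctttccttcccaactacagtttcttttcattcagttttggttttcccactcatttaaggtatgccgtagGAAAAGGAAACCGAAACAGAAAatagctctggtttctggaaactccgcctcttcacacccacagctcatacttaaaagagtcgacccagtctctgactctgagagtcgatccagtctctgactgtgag
Ifit1: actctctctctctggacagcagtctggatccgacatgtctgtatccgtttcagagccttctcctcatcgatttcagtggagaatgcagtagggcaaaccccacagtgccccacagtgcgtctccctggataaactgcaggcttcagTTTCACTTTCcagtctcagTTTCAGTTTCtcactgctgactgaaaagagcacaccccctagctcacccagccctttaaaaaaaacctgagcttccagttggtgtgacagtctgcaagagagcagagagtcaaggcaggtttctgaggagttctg
Ifit3: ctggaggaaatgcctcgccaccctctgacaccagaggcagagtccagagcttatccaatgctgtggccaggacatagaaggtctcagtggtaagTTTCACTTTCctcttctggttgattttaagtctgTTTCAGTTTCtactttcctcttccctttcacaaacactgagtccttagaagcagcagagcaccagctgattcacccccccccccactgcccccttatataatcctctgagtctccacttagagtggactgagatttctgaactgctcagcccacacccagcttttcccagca
Ifit3b: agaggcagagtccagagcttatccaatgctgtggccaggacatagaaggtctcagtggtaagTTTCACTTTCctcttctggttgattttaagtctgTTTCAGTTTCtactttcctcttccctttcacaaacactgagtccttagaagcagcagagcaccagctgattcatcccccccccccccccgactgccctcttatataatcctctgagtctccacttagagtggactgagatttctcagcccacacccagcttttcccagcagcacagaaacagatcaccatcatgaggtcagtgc
Epsti1: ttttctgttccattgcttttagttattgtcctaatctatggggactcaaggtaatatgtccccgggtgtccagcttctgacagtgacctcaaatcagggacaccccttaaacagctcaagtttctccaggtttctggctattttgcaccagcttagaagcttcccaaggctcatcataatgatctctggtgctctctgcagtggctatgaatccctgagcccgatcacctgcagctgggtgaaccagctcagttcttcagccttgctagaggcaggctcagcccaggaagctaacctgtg
Ifi47: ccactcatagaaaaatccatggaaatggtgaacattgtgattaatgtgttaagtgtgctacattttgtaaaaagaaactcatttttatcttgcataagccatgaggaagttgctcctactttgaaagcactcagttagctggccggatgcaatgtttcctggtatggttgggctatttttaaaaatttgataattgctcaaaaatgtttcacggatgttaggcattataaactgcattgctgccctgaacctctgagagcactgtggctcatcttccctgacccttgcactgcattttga
Isg15 holds 3 overlapping matches, the first at position -78 relative to the start. Ifit1 holds 2, the first at -104, and Ifit3 and Ifit3b hold 2 each, the first at -156 and at -188, with the same letters around them. The windows of Epsti1 and Ifi47, which rose with among the smallest p-values, hold no match in these 300 bases.

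Of the 34 members, 24 had a window in the RefSeq table. A match to the spaced pair of GAAA was found in 11 of the 24 members (45.8%) and in 1079 of the 27025 genes with a window (3.99%). Among the 12 members that rose in Luc, 9 had a window and 4 of these a match; among the other 22 members, 15 had a window and 7 a match. A match is a description of the letters and was not tested as a binding site.

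The RNA sensors are Ifih1, known as MDA5, which detects long viral RNA in the cytoplasm, and Dhx58, known as LGP2, which regulates it. Ifih1 stood at 13.5, 13.3, 9.82 and 14.3 TPM in Luc Aoah tumours 1 to 4, against 5.20, 5.52, 6.01 and 7.65 TPM in Luc vector tumours 1 to 4. The groups did not overlap and Ifih1 rose by 0.95 ± 0.31 (SE, limma adjusted p = 0.0428). Dhx58 stood at 2.02, 2.55, 0.91 and 1.78 TPM in Luc Aoah tumours 1 to 4, against 1.32, 0.72, 1.86 and 1.59 TPM in Luc vector tumours 1 to 4. Its groups overlapped, with a change of 0.24 (95% interval -0.87 to 1.34).

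Zbp1, which senses Z-form nucleic acid and can start necroptosis, had one of the larger changes. It stood at 14.3, 13.4, 10.9 and 15.5 TPM in Luc Aoah tumours 1 to 4, against 2.95, 2.26, 3.34 and 2.64 TPM in Luc vector tumours 1 to 4. Each Aoah tumour held several times the level of any vector tumour, and the change was 1.93 ± 0.51 (SE, limma adjusted p = 0.0208). Xaf1, a partner of the apoptosis inhibitor XIAP, stood at 12.8, 12.2, 6.89 and 13.6 TPM in Luc Aoah tumours 1 to 4, against 2.14, 2.45, 1.42 and 2.46 TPM in Luc vector tumours 1 to 4. Luc Aoah 3 was the lowest of its group and still above every vector tumour, and the change was 1.96 ± 0.60 (SE, limma adjusted p = 0.0356). Sp100, a component of nuclear bodies that restrict DNA viruses, stood at 8.70, 9.97, 7.41 and 12.0 TPM in Luc Aoah tumours 1 to 4, against 4.06, 1.94, 3.91 and 3.63 TPM in Luc vector tumours 1 to 4. It also separated the groups, with a change of 1.28 ± 0.37 (SE, limma adjusted p = 0.0309).

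Cmpk2 and Rsad2 are neighbours on chromosome 12. Cmpk2 is a mitochondrial nucleotide kinase, and Rsad2, known as viperin, makes a nucleotide that stops viral polymerases. Cmpk2 stood at 3.18, 3.27, 2.03 and 3.25 TPM in Luc Aoah tumours 1 to 4, against 0.90, 0.42, 0.82 and 0.68 TPM in Luc vector tumours 1 to 4. It rose by 1.20 ± 0.38 (SE, limma adjusted p = 0.0382), with Luc Aoah 3 below the other Aoah tumours but above all vector tumours. Rsad2 stood at 2.60, 2.56, 2.37 and 2.42 TPM in Luc Aoah tumours 1 to 4, against 0.59, 0.73, 0.82 and 1.34 TPM in Luc vector tumours 1 to 4. Its groups did not overlap either, and its change of 0.91 ± 0.41 (SE, limma adjusted p = 0.11) did not pass.

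In all, 4 of the 8 other antiviral effectors rose in Luc, and the remaining ones did not pass. Bst2, or tetherin, which holds budding particles at the membrane, had the highest level of the 34 genes in the Luc tumours. It stood at 168, 179, 132 and 169 TPM in Luc Aoah tumours 1 to 4, against 125, 87.6, 109 and 114 TPM in Luc vector tumours 1 to 4, without overlap, and changed by 0.57 ± 0.27 (SE, limma adjusted p = 0.119). Trim30a, a ubiquitin ligase that restrains Toll-like receptor signalling, stood at 2.80, 2.84, 2.07 and 2.58 TPM in Luc Aoah tumours 1 to 4, against 1.06, 0.86, 1.33 and 1.52 TPM in Luc vector tumours 1 to 4, again without overlap, with a change of 0.71 ± 0.39 (SE, limma adjusted p = 0.173). Parp14, a mono-ADP-ribosyltransferase, overlapped between the groups, with a change of -0.25 (95% interval -1.28 to 0.78).

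Among the Ifi genes and other inducible proteins, 4 of 7 rose in Luc. Ifi27l2a, a small hydrophobic membrane protein, had the largest change of the 33 members tested. It stood at 42.7, 23.7, 46.0 and 37.8 TPM in Luc Aoah tumours 1 to 4, against 7.95, 4.07, 3.37 and 3.41 TPM in Luc vector tumours 1 to 4. Luc vector 1 was above the other vector tumours, every Aoah tumour was above it, and the change was 2.78 ± 0.51 (SE, limma adjusted p = 0.00277). Ifi47, a GTPase of the family that interferon gamma induces strongly, stood at 51.6, 48.4, 63.4 and 89.0 TPM in Luc Aoah tumours 1 to 4, against 21.3, 23.8, 14.7 and 18.6 TPM in Luc vector tumours 1 to 4. It rose by 1.62 ± 0.33 (SE, limma adjusted p = 0.00589), with Luc Aoah 4 the highest. Epsti1, named for epithelial and stromal interaction, stood at 11.4, 10.6, 11.2 and 13.9 TPM in Luc Aoah tumours 1 to 4, against 3.41, 2.17, 2.58 and 2.97 TPM in Luc vector tumours 1 to 4. Both groups were narrow, and its change of 1.76 ± 0.26 (SE, limma adjusted p = 0.000745) had the smallest p of the members. Rtp4, a chaperone of membrane receptors, stood at 18.7, 15.8, 13.8 and 17.7 TPM in Luc Aoah tumours 1 to 4, against 5.00, 1.97, 3.70 and 4.57 TPM in Luc vector tumours 1 to 4. The groups were well apart and the change was 1.90 ± 0.64 (SE, limma adjusted p = 0.048).

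The other 3 genes of that group did not pass. Ifi44 stood at 2.48, 2.12, 1.48 and 2.08 TPM in Luc Aoah tumours 1 to 4, against 0.53, 0.23, 0.32 and 0.75 TPM in Luc vector tumours 1 to 4, with a change of 1.06 ± 0.68 (SE, limma adjusted p = 0.239). Ifi204, a DNA-binding protein of the PYHIN family, stood at 9.59, 8.48, 8.64 and 8.74 TPM in Luc Aoah tumours 1 to 4, against 3.67, 4.38, 5.47 and 3.78 TPM in Luc vector tumours 1 to 4, with a change of 0.90 ± 0.45 (SE, limma adjusted p = 0.146). Both separated the groups. Ifi35, a partner of Nmi, overlapped, with a change of 0.26 (95% interval -0.32 to 0.83). Of the 50-base stretches of Ifi204, 20.0% occur in other genes, so its reads may be shared with relatives such as Ifi211.

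**Figure D2:**
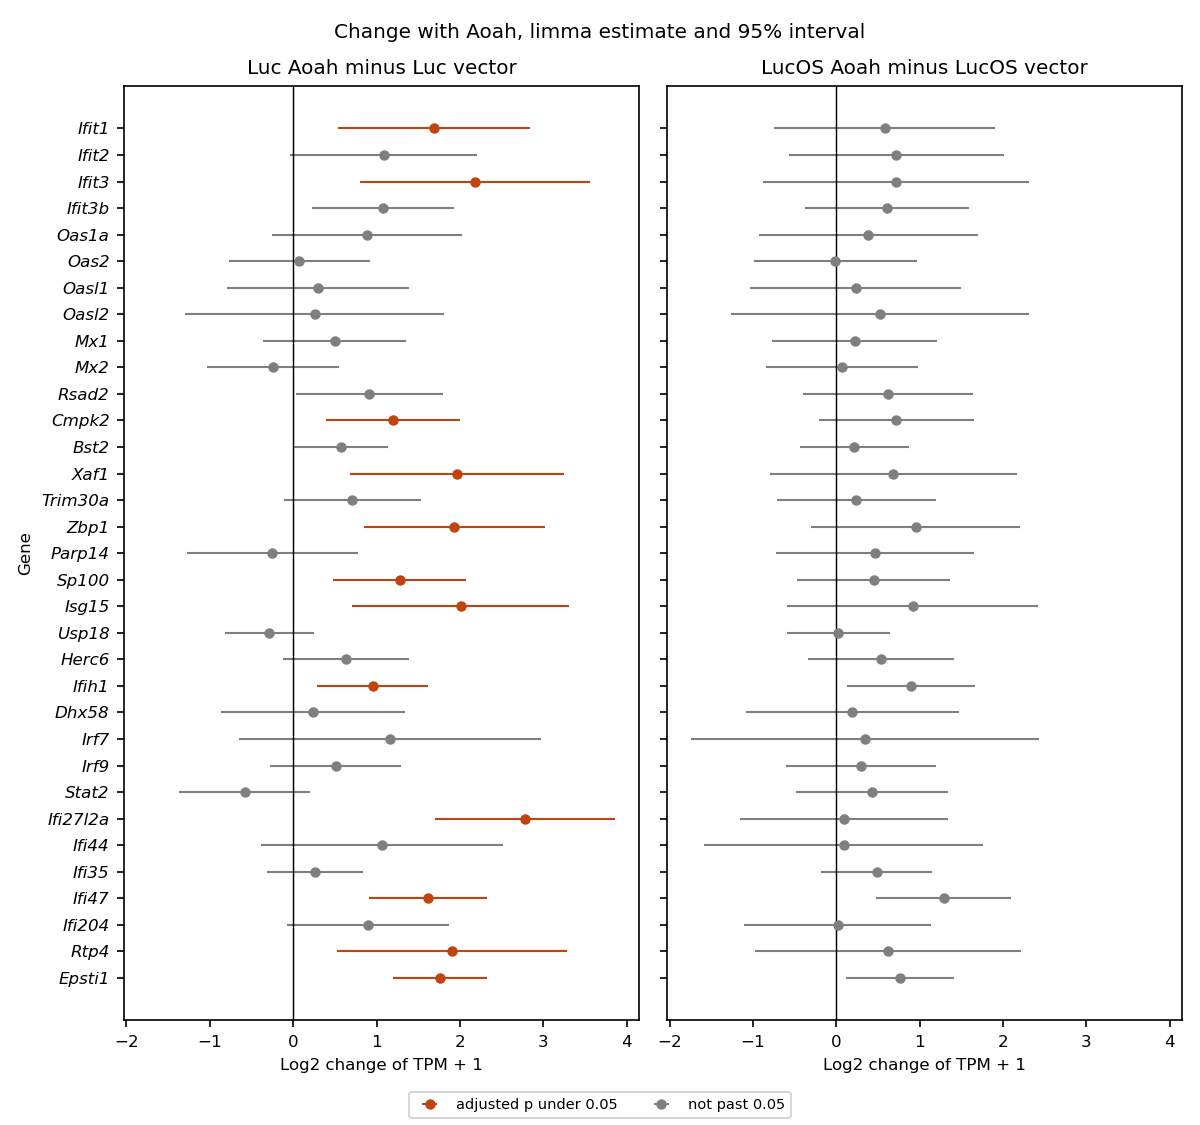
Change with Aoah in Luc (left) and LucOS (right) tumours for the 33 members tested, as the limma estimate of log2(TPM + 1) with its 95% interval, and orange where the adjusted p is under 0.05. The 12 orange points in Luc run from 0.95 (Ifih1) to 2.78 (Ifi27l2a), and no point in LucOS is orange although 32 of 33 lie above 0.

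Of the Oas and Mx genes, 0 of 4 and 0 of 2 tested passed in Luc. Oas enzymes make short oligoadenylates on contact with viral RNA, and these activate RNase L. Oas1a stood at 6.99, 4.80, 5.60 and 6.01 TPM in Luc Aoah tumours 1 to 4, against 3.48, 1.87, 2.75 and 2.85 TPM in Luc vector tumours 1 to 4. The groups did not overlap, and the change was 0.88 ± 0.53 (SE, limma adjusted p = 0.215); with only the Luc tumours fitted Oas1a rose, with a limma adjusted p of 0.0206. Of Oas1a, 57.6% of the 50-base stretches occur in another gene, Oas1g. Oas2 and Oas3 were near 0 in all Luc tumours, at 0.42 TPM or less and at 0.20 TPM or less. The change of Oas2 was 0.07 (95% interval -0.77 to 0.92). Oasl1, which in mice holds back translation of Irf7, changed by 0.30 (95% interval -0.80 to 1.39), and its relative Oasl2 by 0.26 (95% interval -1.29 to 1.81). Mx1 and Mx2 are dynamin-like GTPases that trap viral components, and C57BL/6 mice carry a defective Mx1 allele. Mx1 stood at 0.65, 0.52, 0.92 and 0.45 TPM in Luc Aoah tumours 1 to 4, against 0.20, 0.15, 0.05 and 0.21 TPM in Luc vector tumours 1 to 4. These levels are low but do not overlap, with a change of 0.50 (95% interval -0.36 to 1.35). Mx2 changed by -0.24 (95% interval -1.03 to 0.55) with overlapping groups. Oas2 and Mx1 were below 1 TPM in every Luc tumour, where the log2(TPM + 1) scale leaves little room for a change. The authors' deposited table called Mx1 (log2 fold change 2.34), Oas1a (1.42) and Oasl1 (0.74) higher in Luc, with adjusted p of 0.000331, 4.97e-06 and 0.0165, and called none of Mx2, Oas2, Oas3 and Oasl2.

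None of the 3 transcription factors among the members passed in Luc in the shared fit. Irf7, the inducible factor that drives interferon alpha genes and many interferon-stimulated genes, stood at 10.4, 9.21, 4.95 and 9.59 TPM in Luc Aoah tumours 1 to 4, against 2.86, 2.40, 4.08 and 3.34 TPM in Luc vector tumours 1 to 4. The groups did not overlap, and the change was 1.17 ± 0.84 (SE, limma adjusted p = 0.297). With only the Luc tumours fitted Irf7 rose, by the same 1.17 with an SE of 0.25 (limma adjusted p = 0.0139). Irf9 stood at 12.2, 11.8, 7.69 and 12.4 TPM in Luc Aoah tumours 1 to 4, against 8.12, 5.59, 7.28 and 8.69 TPM in Luc vector tumours 1 to 4. Luc Aoah 3 lay inside the vector range, the other 3 Aoah tumours above it, and the change was 0.51 ± 0.37 (SE, limma adjusted p = 0.295). Stat2 stood at 7.47, 8.74, 4.28 and 6.38 TPM in Luc Aoah tumours 1 to 4, against 10.4, 6.78, 11.9 and 13.2 TPM in Luc vector tumours 1 to 4. Its change was negative and did not pass, -0.58 ± 0.37 (SE, limma adjusted p = 0.236). With only the Luc tumours fitted, Irf9 and Stat2 did not pass either (limma adjusted p = 0.107 and 0.117).

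The authors' deposited table of their own Luc comparison gave more calls. Its numerator was read from the sign of Aoah, so that a positive value means higher in Aoah tumours. In the authors' deposited table, 26 of the 34 members were higher and 0 lower at an adjusted p under 0.05, where 15.6% of its genes were higher and 16.1% lower, and the median log2 fold change of the members was 1.56. The largest in the authors' deposited table was Ifit3b at 3.90 (SE 0.50), which had not passed in the shared fit. The authors' deposited table gave Irf7 a log2 fold change of 1.70 (SE 0.24, adjusted p 8.27e-11) and Stat2 one of -0.38 (SE 0.17, adjusted p 0.0780). The filters and fold change settings of that table were not stated.

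In LucOS tumours, which carry the antigens, no member passed. Of the 33 tested, 0 rose and 0 fell by limma, where 0.750% of all genes rose and 0.215% fell. At an unadjusted p under 0.05, 3 were higher (Ifi47, Ifih1 and Epsti1), against 7.86% of all genes, and 0 were lower, against 4.42%. The change was positive for 32 of 33, with a median of 0.47 against -0.02 over all genes. For none of the 33 were the 3 Aoah tumours all above the 3 vector tumours, an arrangement found for 6.22% of all genes tested, and for none were they all below, against 6.07%.

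Tumours within each LucOS group differed widely. Ifi47 stood at 90.8, 78.0 and 205 TPM in LucOS Aoah tumours 1 to 3, against 31.9, 37.9 and 79.6 TPM in LucOS vector tumours 1 to 3. Only LucOS Aoah 2 and LucOS vector 3 crossed, and the change was 1.29 ± 0.38 (SE, limma adjusted p = 0.138). Epsti1 stood at 10.2, 8.67 and 21.4 TPM in LucOS Aoah tumours 1 to 3, against 5.83, 5.75 and 9.83 TPM in LucOS vector tumours 1 to 3. LucOS Aoah 2 was below LucOS vector 3, and the change was 0.76 ± 0.30 (SE, limma adjusted p = 0.307). Ifih1 stood at 14.7, 12.2 and 29.0 TPM in LucOS Aoah tumours 1 to 3, against 4.49, 14.0 and 10.7 TPM in LucOS vector tumours 1 to 3. LucOS vector 2 lay between the Aoah tumours, and the change was 0.90 ± 0.36 (SE, limma adjusted p = 0.31).

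Genes that rose in Luc followed another order in LucOS. Isg15 stood at 16.3, 16.2 and 79.3 TPM in LucOS Aoah tumours 1 to 3, against 2.60, 35.8 and 25.9 TPM in LucOS vector tumours 1 to 3. LucOS Aoah 3 was the highest and LucOS vector 1 the lowest, while LucOS vector 2 and 3 were above LucOS Aoah 1 and 2, and the change was 0.92 ± 0.70 (SE, limma adjusted p = 0.686). Ifit3 stood at 3.59, 3.25 and 36.2 TPM in LucOS Aoah tumours 1 to 3, against 0.64, 10.4 and 7.84 TPM in LucOS vector tumours 1 to 3. The same order held, with a change of 0.71 ± 0.75 (SE, limma adjusted p = 0.799). Ifit1 stood at 2.51, 2.00 and 18.0 TPM in LucOS Aoah tumours 1 to 3, against 0.42, 6.57 and 4.55 TPM in LucOS vector tumours 1 to 3, and Ifit3b at 0.66, 0.59 and 6.76 TPM in LucOS Aoah tumours 1 to 3, against 0.17, 1.47 and 1.02 TPM in LucOS vector tumours 1 to 3. In both, LucOS vector 2 and 3 again lay between the Aoah tumours.

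Zbp1 stood at 18.1, 14.5 and 74.7 TPM in LucOS Aoah tumours 1 to 3, against 3.97, 20.8 and 27.6 TPM in LucOS vector tumours 1 to 3. Xaf1 stood at 10.3, 8.06 and 66.2 TPM in LucOS Aoah tumours 1 to 3, against 2.80, 25.8 and 15.2 TPM in LucOS vector tumours 1 to 3. Rtp4 stood at 18.8, 12.6 and 83.7 TPM in LucOS Aoah tumours 1 to 3, against 3.46, 46.0 and 29.0 TPM in LucOS vector tumours 1 to 3. For these 3 genes LucOS Aoah 3 was the highest and LucOS vector 1 the lowest, and the changes were 0.95, 0.68 and 0.62, none past the threshold. Sp100 stood at 8.87, 5.71 and 22.1 TPM in LucOS Aoah tumours 1 to 3, against 3.66, 9.74 and 11.1 TPM in LucOS vector tumours 1 to 3. Cmpk2 stood at 2.92, 2.40 and 9.86 TPM in LucOS Aoah tumours 1 to 3, against 0.58, 4.11 and 3.02 TPM in LucOS vector tumours 1 to 3. Ifi27l2a stood at 31.7, 30.7 and 177 TPM in LucOS Aoah tumours 1 to 3, against 30.1, 43.6 and 108 TPM in LucOS vector tumours 1 to 3. For Ifi27l2a, the member with the largest change in Luc, LucOS Aoah 1 and 2 were no higher than LucOS vector 2 and 3 and close to LucOS vector 1, and the change was 0.09 (95% interval -1.16 to 1.34).

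The transcription factors also ranged widely over the LucOS tumours. Irf7 stood at 7.41, 4.14 and 63.1 TPM in LucOS Aoah tumours 1 to 3, against 1.09, 37.2 and 15.9 TPM in LucOS vector tumours 1 to 3. LucOS vector 2 held more Irf7 than each of the 4 Luc Aoah tumours, and LucOS vector 1 held less than every Luc vector tumour. Irf9 stood at 11.0, 8.66 and 22.4 TPM in LucOS Aoah tumours 1 to 3, against 4.22, 18.0 and 13.8 TPM in LucOS vector tumours 1 to 3, and Stat2 at 9.22, 7.75 and 23.3 TPM in LucOS Aoah tumours 1 to 3, against 4.67, 15.7 and 8.39 TPM in LucOS vector tumours 1 to 3. Both were highest in LucOS Aoah 3 and lowest in LucOS vector 1. The changes of Irf7, Irf9 and Stat2 were 0.34, 0.29 and 0.43.

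LucOS Aoah 3 was the highest of all 14 tumours for all 34 members, a place it held for 11.8% of all genes tested. Its level over the mean of LucOS Aoah 1 and 2 had a median ratio of 5.27 over the members against 1.07 over all genes, and ran from 1.57 for Bst2 to 19.4 for Oas3. Oas2, at 0.22, 0.29 and 4.86 TPM in LucOS Aoah 1 to 3, and Oasl2, at 2.23, 1.23 and 28.3 TPM, show how far that tumour stood from its group. LucOS vector 1 was the lowest of the 6 LucOS tumours for 31 of 34 members, a place it held for 35.2% of all genes. The 3 exceptions were Mx2, Oas2 and Epsti1.

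The sign of the LucOS comparison depended on those tumours. Without LucOS Aoah 3 the median change of the members was -0.19, with 7 of 31 positive, and without LucOS vector 1 it was -0.15, with 13 of 33 positive. With limma array weights, which give a tumour less weight the farther it lies from its group, the median was -0.43, 1 member was higher (Ifih1) and 7 were lower, where 17.2% of all genes were higher and 14.6% lower under the same weights.

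**Figure D3:**
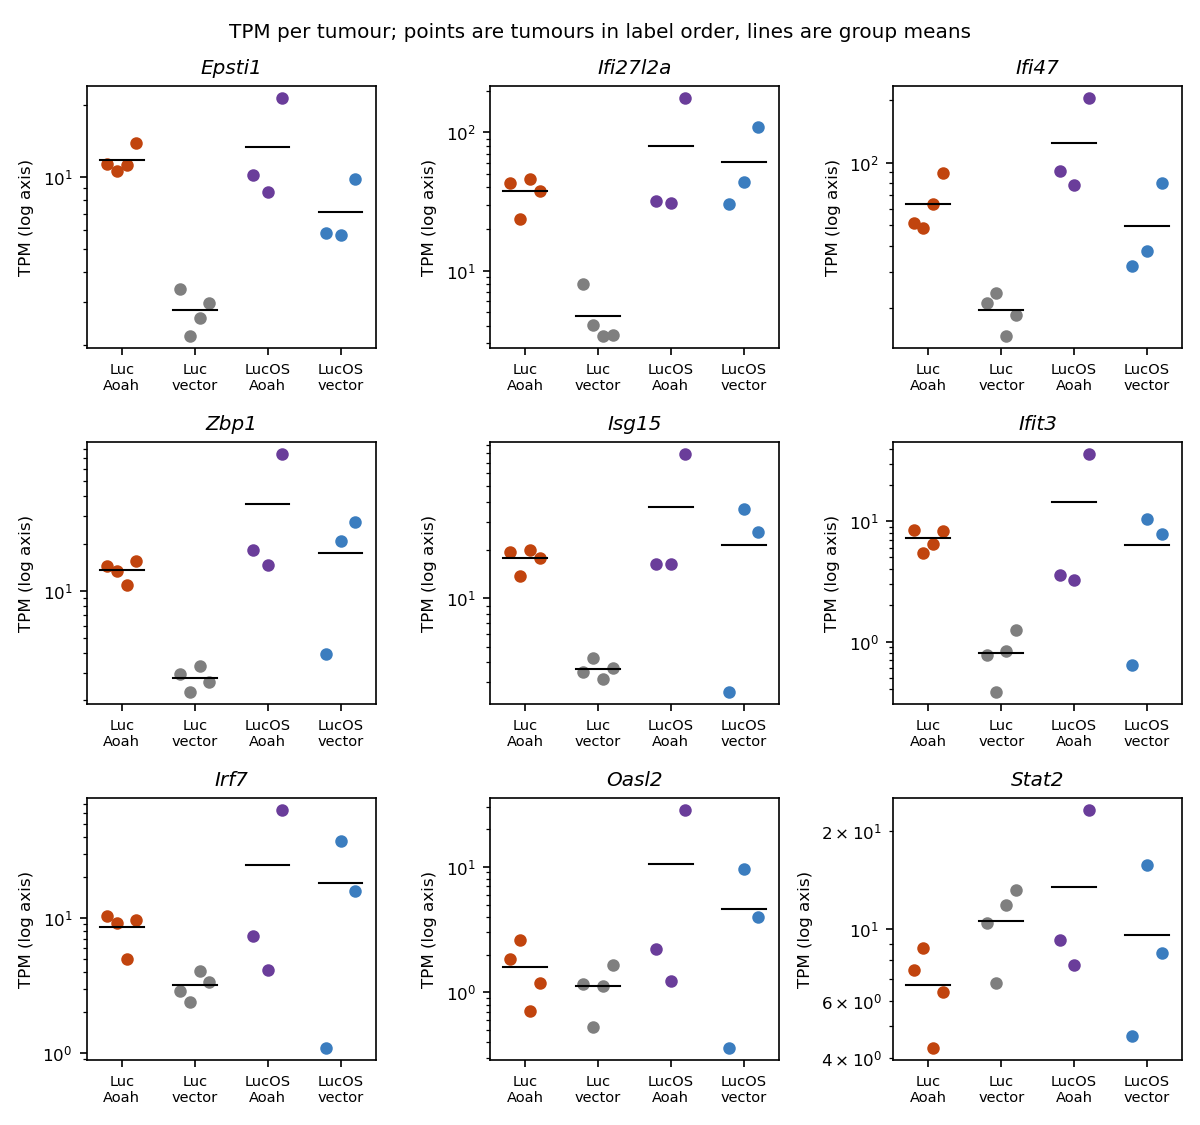
TPM of 9 genes in each tumour on a log axis, by group, with group means as lines. The 6 upper genes separate the Luc groups without overlap, whereas in LucOS the highest point is always LucOS Aoah 3 and vector tumours reach into the Aoah range; Irf7 runs from 1.09 to 63.1 TPM over the LucOS tumours.

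The authors' deposited table for LucOS called none of the 33 members that have an adjusted p there, where 1.99% of its genes were higher, and all 34 log2 fold changes in it were positive. For Ifit3, the authors' deposited table lists a log2 fold change of 1.20 without a p-value.

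Averaged over both models, 7 of the 33 members rose and 0 fell, where 8.02% of all genes tested rose and 6.68% fell. Epsti1 had the smallest p, with a change of 1.26 ± 0.20 (SE, limma adjusted p = 0.00088). Ifi47 followed at 1.45 ± 0.25 (SE, limma adjusted p = 0.00164) and Ifih1 at 0.92 ± 0.24 (SE, limma adjusted p = 0.0184). These 3 genes had an unadjusted p under 0.05 in LucOS as well. Ifi27l2a changed by 1.44 ± 0.39 (SE, limma adjusted p = 0.0232), Zbp1 by 1.44 ± 0.39 (SE, limma adjusted p = 0.0235), Cmpk2 by 0.96 ± 0.29 (SE, limma adjusted p = 0.0376) and Isg15 by 1.46 ± 0.47 (SE, limma adjusted p = 0.0491). Sp100, Ifit3, Xaf1, Ifit1 and Rtp4, which rose in Luc, did not pass over both models, with adjusted p from limma between 0.0551 and 0.0961. The count was 4 without LucOS Aoah 3, 12 without LucOS Aoah 2 and 11 without LucOS vector 2.

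Whether the response to Aoah differed between the models was tested directly as LucOS effect minus Luc effect. By limma 0 members passed in either direction, where 0.00743% of all genes tested had a smaller effect in LucOS and 0 a larger one. At an unadjusted p under 0.05, 0 members had a larger and 2 a smaller effect in LucOS, against 6.80% of all genes with a larger and 3.43% with a smaller one. These 2 were Ifi27l2a, at -2.69 ± 0.77 (SE, limma adjusted p = 0.443), and Epsti1, at -1.001 ± 0.40 (SE, limma adjusted p = 0.443). The difference was negative for most members, with 6 of 33 positive and a median of -0.36, whereas the median over all genes was 0.23. For Isg15 it was -1.09 (95% interval -3.09 to 0.90), an interval that includes 0. The result depended on the weight of single tumours: with array weights 22 members had a smaller effect in LucOS and 1, Stat2, a larger one, where 11.0% of all genes had a smaller and 27.9% a larger one under the same weights.

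Between the models, the antigen-bearing LucOS vector tumours were set against Luc vector tumours. By limma 0 members passed, as did 0 of all genes tested in either direction. At an unadjusted p under 0.05, 15 of 33 members were higher and 0 lower, where 3.16% of all genes were higher and 11.1% lower. The change was positive for 32 of 33 with a median of 0.92, against -0.25 over all genes. For 5 members all 3 LucOS vector tumours lay above all 4 Luc vector tumours, which held for 2.12% of all genes, and for 0 members they lay below, which held for 7.63%. Ifi27l2a stood at 30.1, 43.6 and 108 TPM in LucOS vector tumours 1 to 3, against 7.95, 4.07, 3.37 and 3.41 TPM in Luc vector tumours 1 to 4. Here even LucOS vector 1 was well above the Luc vector tumours, and the change was 3.29 ± 0.55 (SE, limma adjusted p = 0.113). Epsti1, at 5.83, 5.75 and 9.83 TPM in LucOS vector, against 3.41, 2.17, 2.58 and 2.97 TPM in Luc vector tumours, changed by 1.08 ± 0.28 (SE, limma adjusted p = 0.344).

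Most members followed another order between the vector groups, with LucOS vector 1 at Luc vector levels. Isg15 stood at 2.60, 35.8 and 25.9 TPM in LucOS vector tumours, against 3.47, 4.26, 3.16 and 3.65 TPM in Luc vector tumours. LucOS vector 1 was below all 4 Luc vector tumours and the other 2 were several fold above them, and the change was 1.73 ± 0.66 (SE, limma adjusted p = 0.344). With array weights 31 members rose and 0 fell in this comparison, where 15.5% of all genes rose and 41.8% fell under the same weights.

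Among Aoah tumours, LucOS against Luc also gave 0 members past the threshold by limma, where 0 of all genes tested were higher and 0.0817% lower. At an unadjusted p under 0.05, 3 members were higher, Ifi47, Mx2 and Usp18, and 0 lower, where 2.73% of all genes were higher. For 0 members the LucOS tumours all lay above or all below the Luc tumours, against 2.20% and 5.28% of all genes. The median change was 0.60, with 33 of 33 positive, and it was -0.12 without LucOS Aoah 3, with 11 of 31 positive. The comparisons of Aoah with vector and of LucOS with Luc share their tumours, so the sets of values are not independent of each other.

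The other steps of the pathway were read from lists of further genes. Of 20 interferon ligand genes, 3 had a row in the table; the other 17, with the interferon alpha genes, are not analysed here. Ifnb1, which encodes interferon beta, stood at 0.06 TPM in Luc Aoah 1 and is listed at 0 in the other 13 tumours. Ifnk was at 0.10 TPM or less in every tumour. Ifng, which encodes interferon gamma, stood at 0.54, 0.29, 1.00 and 1.14 TPM in Luc Aoah tumours 1 to 4, against 0.20, 0.04, 0.08 and 0.22 TPM in Luc vector tumours 1 to 4. In LucOS it stood at 0.79, 0.41 and 2.33 TPM in LucOS Aoah tumours 1 to 3, against 0.15, 0.04 and 0.66 TPM in LucOS vector tumours 1 to 3. These levels are low, and the Luc groups did not overlap. Ifng reached 1 TPM only in Luc Aoah 3, Luc Aoah 4 and LucOS Aoah 3. It thus passed the filter only through Aoah tumours, where it was higher, which limits what its test can show. With that limit, Ifng rose over both models by 0.64 ± 0.20 (SE, limma adjusted p = 0.0396). For the Luc model by itself the estimate was 0.59 with an SE of 0.26 and did not pass (limma adjusted p = 0.0963).

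The receptor genes did not rise. Of 5 receptor genes tested in Luc, 0 rose and 0 fell by limma, with 0 higher and 1 lower at an unadjusted p under 0.05. At that threshold 12.7% of all genes tested were higher and 29.1% lower in Luc. Ifnar1 stood at 6.85, 11.1, 4.11 and 5.32 TPM in Luc Aoah tumours 1 to 4, against 11.0, 8.70, 12.3 and 15.6 TPM in Luc vector tumours 1 to 4. The groups overlapped, and the change was -0.77 ± 0.30 (SE, limma adjusted p = 0.0738). Ifnar2 changed by -0.31 (95% interval -0.996 to 0.37). In LucOS their changes were -0.23 and 0.11.

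Of 11 signalling genes, kinases and transcription factors of the pathway, 0 rose and 0 fell in Luc, and 0 rose or fell in LucOS. By limma at an unadjusted p under 0.05, 0 were higher and 1 lower in Luc, against 12.7% and 29.1% of all genes. In LucOS 3 were higher, against 7.86% of all genes. Of 7 feedback inhibitors tested, 3 fell in Luc, where 14.3% of all genes tested fell. Socs3, a suppressor of cytokine signalling that acts mainly on the interleukin-6 pathway, stood at 3.54, 3.79, 2.42 and 1.46 TPM in Luc Aoah tumours 1 to 4, against 25.6, 21.7, 33.5 and 22.4 TPM in Luc vector tumours 1 to 4. It fell in Luc, with a change of -2.85 ± 0.34 (SE, limma adjusted p = 0.000151), and in LucOS, with a change of -1.92 ± 0.39 (SE, limma adjusted p = 0.0335). The phosphatase Ptpn11 and Pias1, a SUMO ligase, fell in Luc, with changes of -1.13 ± 0.36 (SE, limma adjusted p = 0.0389) and -0.87 ± 0.28 (SE, limma adjusted p = 0.0408). Of 11 further nucleic acid sensing genes, 1 fell in Luc and 0 rose, where 14.3% of all genes tested fell and 7.93% rose. It was Ticam1, an adaptor of Toll-like receptors, with a change of -1.05 ± 0.30 (SE, limma adjusted p = 0.0281).

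Of 46 other interferon-stimulated genes tested, 12 rose and 1 fell in Luc, with a median change of 0.55. The 4 with the smallest p were Ms4a6b, Ifit1bl1, Apol9b and Mndal, at changes of 2.02, 0.92, 3.81 and 1.41. Of the vector tumours, only LucOS vector 3 reached 1 TPM of Ifit1bl1. That gene passed the filter only with Aoah tumours, where it was higher, which limits what its test can show. Apol9b, an apolipoprotein L gene of mice, stood at 30.1, 28.1, 16.5 and 43.8 TPM in Luc Aoah tumours 1 to 4, against 0.83, 0.94, 1.40 and 1.17 TPM in Luc vector tumours 1 to 4. Each Aoah tumour held many times the level of any vector tumour, and the change was 3.81 ± 0.83 (SE, limma adjusted p = 0.0107). Ly6e, a membrane protein that blocks coronavirus entry, is the gene that fell, with 196, 362, 81.6 and 160.1 TPM in Luc Aoah tumours, against 444, 425, 724 and 540.0 TPM in Luc vector tumours. Its groups did not overlap and the change was -1.57 ± 0.53 (SE, limma adjusted p = 0.0477). In LucOS 0 of the 46 rose, with 8 higher at an unadjusted p under 0.05, against 7.86% of all genes, and over both models 11 rose and 1 fell.

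Genes known mainly as interferon gamma targets were higher with Aoah in both models. Of 19 tested, 9 rose in Luc, 4 in LucOS and 13 over both models, and 0 fell in any of the 3 comparisons. The median change was 1.31 in Luc and 1.56 in LucOS. Gbp4, Gbp5 and Ciita, 3 of the 19, reached 1 TPM in fewer than 3 vector tumours. They thus passed the filter only with Aoah tumours, where they were mostly higher, which limits what their tests can show. Cxcl9, a chemokine that attracts T cells, stood at 20.2, 33.5, 20.8 and 46.9 TPM in Luc Aoah tumours 1 to 4, against 7.56, 2.51, 7.03 and 8.19 TPM in Luc vector tumours 1 to 4. In LucOS it stood at 105, 58.5 and 329.8 TPM in LucOS Aoah tumours 1 to 3, against 5.43, 9.90 and 24.2 TPM in LucOS vector tumours 1 to 3. The groups did not overlap in either model, and the changes were 2.11 ± 0.52 (SE, limma adjusted p = 0.0152) for Luc and 3.40 ± 0.60 (SE, limma adjusted p = 0.0207) for LucOS. Psmb9, a subunit of the immunoproteasome, stood at 29.3, 39.2, 42.0 and 56.9 TPM in Luc Aoah tumours 1 to 4, against 13.7, 8.38, 7.74 and 9.01 TPM in Luc vector tumours 1 to 4. In LucOS it stood at 99.9, 88.5 and 187 TPM in LucOS Aoah tumours 1 to 3, against 17.4, 26.5 and 50.4 TPM in LucOS vector tumours 1 to 3, again without overlap, with changes of 1.99 ± 0.32 (SE, limma adjusted p = 0.00124) and 2.01 ± 0.37 (SE, limma adjusted p = 0.0244). Many of the 34 members are induced by interferon gamma as well, and which interferon acted was not tested.

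Markers of other cell types moved with Aoah too. Summed over 13 T cell genes, Luc Aoah tumours held 68.8 to 119 TPM, against 6.23 to 23.1 TPM in the Luc vector group. In LucOS the sums were 71.7 to 191 TPM in Aoah tumours, against 14.8 to 42.4 TPM in vector tumours. Of 12 T cell genes tested, 9 rose in Luc, 2 in LucOS and 12 over both models. The sum of 9 NK and cytotoxic genes was 56.5 to 101 TPM in Luc Aoah tumours, against 5.53 to 19.1 TPM in Luc vector tumours, and all 5 of these genes tested rose in Luc. Monocyte and macrophage genes summed to 334 to 372 TPM in Luc Aoah tumours, against 140 to 180 TPM in Luc vector tumours, though only 3 of 9 rose, and 1, Cd14, fell. Neutrophil genes were lower, and 4 of 5 tested fell, with sums of 49.7 to 97.9 TPM in Luc Aoah tumours, against 122.5 to 378 TPM in Luc vector tumours. Ptprc, the common leukocyte antigen, rose by 1.26 ± 0.28 (SE, limma adjusted p = 0.00953). Of B and plasma cell genes, 3 of 4 tested rose, and their sum was 57.0 to 126 TPM in Luc Aoah tumours, against 3.92 to 32.6 TPM in Luc vector tumours. Of stellate cell and fibroblast genes, 4 of 6 tested rose, with sums of 95.4 to 157 TPM in Luc Aoah tumours, against 26.4 to 50.6 TPM in Luc vector tumours. Of Kupffer cell genes 3 of 6 rose and of endothelial genes 3 of 7, and 0 of either fell; the sums were 126 to 202 TPM and 20.4 to 37.2 TPM in Luc Aoah tumours, against 66.6 to 153 TPM and 5.86 to 21.4 TPM in Luc vector tumours. Some of the genes counted reached 1 TPM in fewer than 3 vector tumours: Cd4, Cd5, Cd8a, Cd8b1, Cd79b, Mzb1, Lrat, Des, Timd4 and Vwf. They thus passed the filter only with Aoah tumours, where they were mostly higher, which limits what their part of the counts can show. Hepatocyte genes, the markers of the labelled tissue, were present throughout. Of 8, 3 rose (Alb, Ttr and Cyp3a11) and 0 fell, and 2, Hnf4a and Cps1, were lower at an unadjusted p under 0.05, with changes of -1.19 ± 0.43 (SE, limma adjusted p = 0.0584) and -0.77 ± 0.28 (SE, limma adjusted p = 0.0609). Over all genes tested, 29.1% were lower at that unadjusted threshold. The sum of the 8, much of it Alb, came to 6880.2 to 23597 TPM in Luc Aoah tumours, against 5057 to 6951 TPM in Luc vector tumours. The part of any of these in the change of the 34 genes was not tested.

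**Figure D4:**
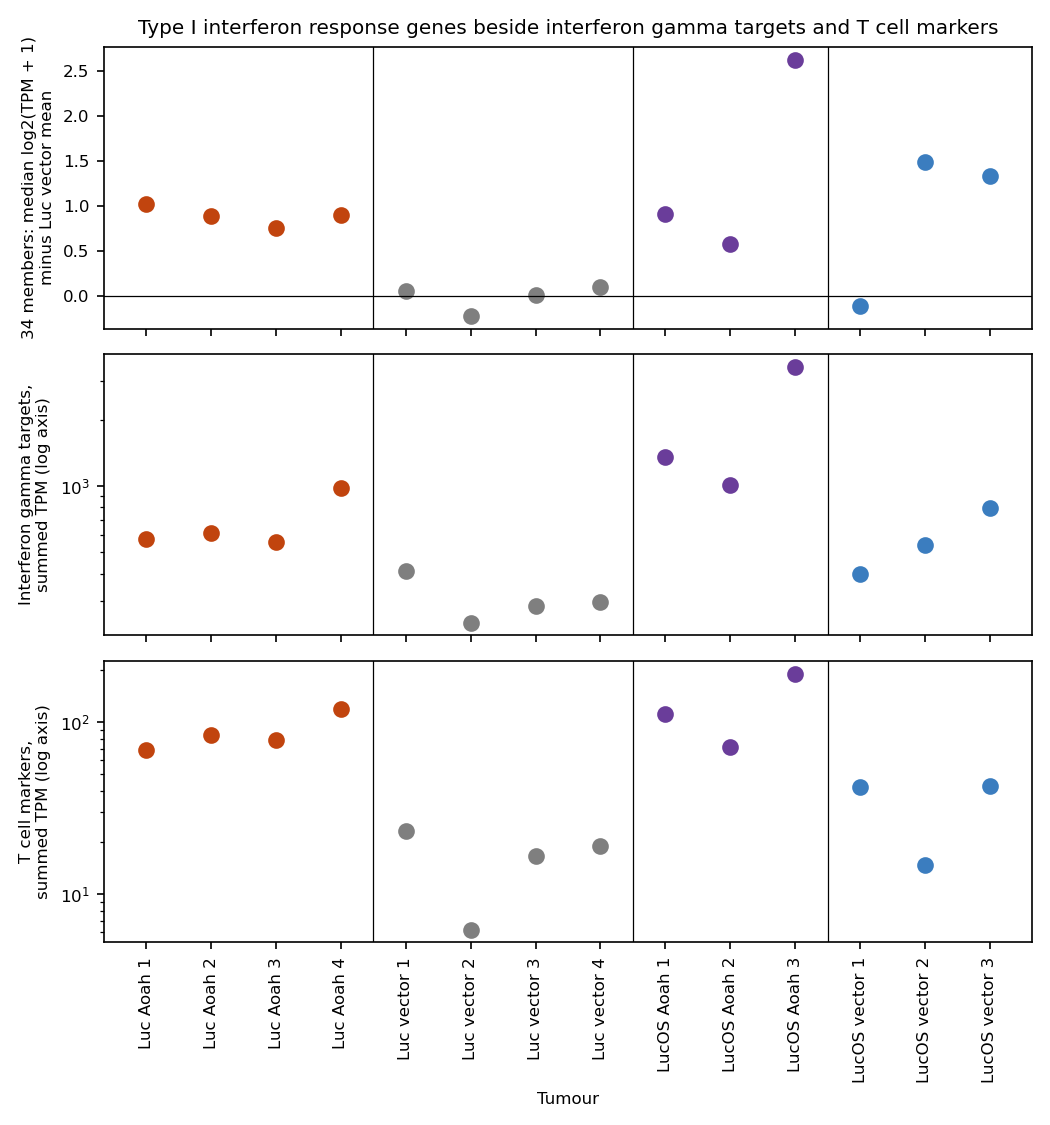
For each tumour, the median over the 34 genes of log2(TPM + 1) minus the Luc vector mean (top), the summed TPM of 22 interferon gamma targets (middle, log axis) and of 13 T cell markers (bottom, log axis). Within Luc all 3 measures are higher in every Aoah tumour. LucOS vector 2 has a median of 1.49 beside a T cell sum of 14.8 TPM, and LucOS vector 3 one of 1.34 beside 42.4 TPM.

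Within LucOS the interferon-stimulated genes and the T cell markers had different orders. LucOS vector 2 had a member median 1.49 above the Luc vector mean on the log2 scale, with a T cell sum of 14.8 TPM, an NK sum of 13.5 TPM and 0.04 TPM of Ifng. LucOS vector 1 had a member median of -0.11 with a T cell sum of 42.2 TPM and an NK sum of 62.0 TPM. In LucOS vector 3 the member median was 1.34, with a T cell sum of 42.4 TPM, an NK sum of 43.1 TPM and 0.66 TPM of Ifng. Interferon gamma targets summed to 398, 542 and 791 TPM in LucOS vector tumours 1 to 3, lowest in LucOS vector 1 as for the member medians. The tumour with the second highest member median was the LucOS tumour with the fewest T cell transcripts. What set these orders was not tested. LucOS Aoah 3 had the highest member median, 2.63, and also the highest T cell, interferon gamma target and macrophage sums of the 14, at 191, 3488 and 626 TPM. Luc Aoah tumours had member medians of 0.76 to 1.02, against -0.22 to 0.10 in Luc vector tumours.

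Plasmacytoid dendritic cells are a main source of interferon alpha. The sum of their markers is mostly Ly6d, which changed by 0.27 (95% interval -0.35 to 0.89) in Luc, so some of the others are given singly. The defining marker Siglech stood at 0.37, 0.38, 0.25 and 0.67 TPM in Luc Aoah tumours 1 to 4, against 0.06, 0.02, 0.02 and 0.12 TPM in Luc vector tumours 1 to 4. In LucOS it stood at 0.79, 0.68 and 1.07 TPM in LucOS Aoah tumours 1 to 3, against 0.08, 0.28 and 0.30 TPM in LucOS vector tumours 1 to 3. Ccr9, a chemokine receptor of these cells, stood at 0.30, 0.39, 0.22 and 0.55 TPM in Luc Aoah tumours 1 to 4, against 0.14, 0.05, 0.08 and 0.12 TPM in Luc vector tumours 1 to 4. In LucOS Ccr9 stood at 0.51, 0.49 and 0.72 TPM in LucOS Aoah tumours 1 to 3, against 0.14, 0.10 and 0.13 TPM in LucOS vector tumours 1 to 3. Neither gene overlapped between Aoah and vector tumours in either model, and all these levels are about 1 TPM or less and were not tested. Not every marker of the list was higher in Luc Aoah tumours. Tcf4 stood at 3.83, 6.38, 2.40 and 3.54 TPM in Luc Aoah tumours 1 to 4, against 5.57, 4.60, 9.55 and 8.37 TPM in Luc vector tumours 1 to 4. Cox6a2 overlapped between the Luc groups as well. Of the 4 plasmacytoid genes tested, with Bst2 among them, 0 rose or fell in Luc. By limma at an unadjusted p under 0.05, 1 was higher and 1 lower, against 12.7% and 29.1% of all genes.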

How the data were processed

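Bulk polyA RNA of 14 liver tumours was measured, and groups were taken from the labels. Per the labels' protocols, poly-T beads captured mRNA before random-primed cDNA synthesis. Both a directional and a non-directional library are named, so overlapping or antisense genes cannot always be told apart. RSEM, DESeq2 and build mm39 come from the submitters' processing notes, with no version; no aligner is named there. The authors deposited log2 values of TPM plus 1, which were turned back to TPM; the authors' TPM scaling removes depth, so no counting interval can be given. The authors' deposited comparison tables hold log2 fold changes, their test score and p-values per Ensembl identifier, and a mean signal, the authors' mean of normalized counts, which was not used; identifiers were named here with GENCODE M21 (95.5% of 28026 and 95.6% of 26939 identifiers). The deposited receptor repertoire table was not used.

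limma 3.58.1 in R 4.3.3 was run on log2(TPM + 1) with a pseudocount of 1, trend and robust variances, 1 mean per group over all 14 tumours, genes at 1 TPM or more in at least 3 tumours (13466 kept), and Benjamini-Hochberg adjustment over all of them at 0.05. All tests were two-sided, 6 contrasts were fitted, and adjusted p-values in the text come from this fit unless the authors' table is named. Changes on this scale understate those of genes at low TPM. Per-tumour values are given for members past the threshold, for Irf7, Irf9 and Stat2, for Ifit3 and Ifit3b, and for further members by role; other lists are represented by their genes with the smallest p and by Ifnb1, Ifng, Ifnar1 and Ifnar2. A result on another gene of the pathway is not reported here. The members and lists were chosen with earlier results of these data known, so no test over the list was made. The fit was tested on simulated data. Alternatives were other pseudocounts and filters, a replicate block, centring, other variance models, array weights, only the groups compared, and leaving out tumours. The labels give no batch. Same-numbered tumours of different groups deviated together, at a correlation over 0.1, in 5 of 19 pairs, so the numbers were not taken as pairs.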

Additional observations from a re-analysis of the deposited data

Results flagged for a closer look

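In 3 cases a single tumour stood apart from the other 3 of their group of 4, by a gap that was large against the whole range of the group. Of 70 groups of 4 checked, 3 met that criterion, which is set at the 95% level of Dixon's test, so that chance flags about 1 in 20 groups. Ifi27l2a stood at 7.95 TPM in Luc vector 1 and at 3.37 to 4.07 TPM in the other Luc vector tumours. Irf9 stood at 7.69 TPM in Luc Aoah 3 and at 11.8 to 12.4 TPM in Luc Aoah 1, 2 and 4. Cmpk2 stood at 2.03 TPM in Luc Aoah 3 and at 3.18 to 3.27 TPM in Luc Aoah 1, 2 and 4. The LucOS groups hold 3 tumours each and were not checked this way.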

How the results depend on the processing

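In Luc, the 12 members that rose became 3 without a filter on low values, 5 with the replicate block, 20 with each tumour centred on its median, 23 with array weights, 22 with only the groups compared and 2 without both Luc vector tumours with raised Aoah; leaving out each tumour in turn gave 3 to 14. Over all genes those single omissions gave 520 to 1214 higher and 335 to 4051 lower, against 1068 and 1920. Epsti1 and Ifi27l2a passed in Luc under all 25 alternatives, and Ifi47 under 24 of 25. Array weights raised the calls over all genes too, to 2252 higher and 5263 lower in Luc. In LucOS the count of 0 became 1 with array weights and stayed at 0 in every other setting. Over both models, 7 became 2 without a filter, 18 with centring and 13 with array weights. It became 2 without both Luc vector tumours with raised Aoah and 3 without Luc Aoah 3 and LucOS Aoah 3 together. Single omissions gave 4 to 12. Calls over all genes moved as well, from 1080 higher and 900 lower to 1813 and 1459 with centring, and to 2425 and 4406 with array weights. Single omissions gave 770 to 1137 higher and 412 to 2192 lower over all genes. For the difference between the models, array weights gave 1 in place of 0 with a larger effect in LucOS, and 22 with a smaller one. For LucOS against Luc vector, 0 became 31 with array weights, 1 with only the groups compared, and 1 without Luc Aoah 3 and LucOS Aoah 3; single omissions gave 0 to 1. Among Aoah tumours the count was 0 in every setting. With array weights 6 members passed in LucOS with the opposite sign: Ifi27l2a at -1.51, Ifi204 at -1.23, Mx1 at -0.75, Mx2 at -0.75, Oas1a at -0.83 and Trim30a at -0.81. Over both models Oas2 did so at -0.42. A further 237 of 4747 values compared changed sign without passing in either fit. The causes were not tested beyond the tumours left out. The replicate block gave 5 over both models; since the numbers do not pair the tumours, its effect is not a measure of strength. Alternatives that leave out Luc vector 1 and 3, or the Aoah tumours 3, were chosen from an earlier analysis of these data. TPM keeps no depth, so the detection limit of low genes such as Oas2, Oas3, Mx1, Ifit3b, Ifng and Ifnb1 is unknown.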
